A study of Mus musculus with 12 samples.

Results

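The 10 genes described here mark melanocytes, the pigment cells that form the intermediate cell layer of the stria vascularis in the cochlea. They are Mitf, Ednrb, Tyr, Tyrp1, Dct, Pmel, Mlana, Gpnmb, Oca2 and Slc45a2. They were chosen by name, as genes of the melanocyte programme, and are 10 of the 22869 gene symbols in the deposited table. RNA-seq was performed on cochlear epithelium of C57BL/6 mouse embryos at embryonic day 16.5, with 3 Esrp1-/- embryos (knockout) and 3 Esrp1+/+ embryos (control). Esrp1 encodes an epithelial splicing regulator, and the comparison asks what differs in the developing cochlea without it. Each biological replicate was an individual embryo whose 2 cochleae were pooled, and 2 libraries per embryo were deposited together as 1 column of reads. The tissue was dissected by hand and then treated with collagenase P (0.1 mg/ml, 15 min, 37 °C), a step meant to take away the surrounding mesenchyme, so that the number of melanocytes left in each preparation is not known.

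Intermediate cells descend from neural crest melanoblasts that settle between the marginal cell epithelium and the mesenchyme of the lateral wall. The transcription factor MITF switches on the enzymes and structural proteins of the melanosome, the organelle in which melanin is made, and endothelin 3 acting through EDNRB and KIT ligand acting through KIT guide and maintain the precursors. In the adult stria, intermediate cells carry the potassium channel KCNJ10, on which the endocochlear potential depends, and mice that lose these cells are deaf. In RNA from whole tissue, fewer melanocytes and less RNA per melanocyte cannot be told apart.

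The embryos had 12547301 to 21568517 reads assigned to genes, of which 14717 were tested. The targeted gene, Esrp1, had 33.5 ± 5.98 CPM (read counts relative to library size, with library sizes scaled by TMM) in knockouts and 139 ± 50.9 CPM in controls (SD, n = 3 each), with no overlap of the groups. Some embryos stood apart in ways that genotype does not define. Xist, transcribed from the inactive X chromosome, was at 0.268 and 0.2002 CPM in knockouts 2 and 3, against 1098 CPM in knockout 1 and 1313 to 1808 CPM in controls. The Y-linked Ddx3y was high in knockouts 2 and 3 alone (94.97 and 81.9 CPM, against at most 0.907 CPM in the other 4 embryos). Fos, an immediate early gene, was at 64.6 CPM in knockout 1 and 152.7 CPM in control 1, and at 1.00 to 7.28 CPM in the remaining embryos.

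The promoters of the pigment enzyme genes Tyr, Tyrp1 and Dct share a short sequence. It is shown as a description, and a link between this sequence and the levels of the genes was not tested. The M-box core TCATGTG is the textbook binding sequence of MITF. It was searched on both strands, with CATGTG (contained in it), CACGTG and the SOX-type motif ACAAAG, in RefSeq windows from 250 bases before to 50 bases after a transcript start (GRCm38.p6, the assembly that mm10 represents). Of the 10 genes, 7 had a window, and Pmel, Mlana and Slc45a2 had none. TCATGTG was present in 3 of the 7, namely Tyr, Tyrp1 and Dct, and in 3.77% of all 32851 windows. The 30 bases around each match are given 5′ to 3′ on the strand that reads TCATGTG, with the motif in capitals. Slc24a5 and Trpm1, melanocyte genes outside the 10 that are taken up further on, are added, as a window of each holds the motif too. Gpr143 and Pax3, taken up further on as well, were looked up in the same way and gave no match. Whether either of them had a window was not recorded.
Tyr, 22 bases before the start: agaaaaagttagTCATGTGctttgcagaag
Tyrp1, 47 bases before the start: gtggggagggagTCATGTGctgcctagtag
Dct, 151 bases before the start: gtgcacttagggTCATGTGctaacaaagag
Dct, 232 bases before the start, opposite strand: tctttattgggcTCATGTGtcccagccaag
Slc24a5, 13 bases before the start, opposite strand: acttatgctgaaTCATGTGagcagtctcct
Trpm1, 142 bases before the start: cccaaatcctcaTCATGTGcccaccccaaa
These stretches lie at chr7:87493517-87493546 (minus strand), chr4:80834154-80834183 (plus strand), chr14:118052380-118052409 (minus strand), chr14:118052460-118052489 (plus strand), chr2:125068103-125068132 (minus strand) and chr7:64153681-64153710 (plus strand).

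The whole 250 bases before the start are given for Dct and Tyr, which had the highest levels of the enzyme genes, so that the motif, in capitals and as CACATGA where it lies on the opposite strand, can be seen in its context.
Dct, chr14:118052247-118052496, minus strand: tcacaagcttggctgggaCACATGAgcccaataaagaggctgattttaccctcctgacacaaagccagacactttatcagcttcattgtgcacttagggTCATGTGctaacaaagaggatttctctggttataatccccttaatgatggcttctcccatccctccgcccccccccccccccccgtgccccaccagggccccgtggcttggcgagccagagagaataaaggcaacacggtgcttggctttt
Tyr, chr7:87493513-87493762, minus strand: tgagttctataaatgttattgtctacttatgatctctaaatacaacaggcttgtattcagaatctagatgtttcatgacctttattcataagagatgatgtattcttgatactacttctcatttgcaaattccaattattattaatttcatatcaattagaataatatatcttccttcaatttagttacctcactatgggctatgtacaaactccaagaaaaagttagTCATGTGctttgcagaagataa
The Dct promoter also held ACAAAG at 141 and 192 bases before the start, Tyrp1 at 190 bases on the opposite strand, Gpnmb at 172 bases and Oca2 at 65 bases on the opposite strand, while 18.7% of all windows hold it. Oca2 held CATGTG without the leading T (14.2% of all windows). The 3 Mitf windows and the Ednrb window held none of the 4 motifs, and CACGTG (7.15% of all windows) was in no window of the 10 genes. A match is a description of these letters and not a measured binding site.

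Compared per length, on the scale of the authors' FPKM (reads scaled by transcript length and library size), Ednrb had the highest mean level, with 20.5 to 24.1 FPKM in knockouts and 9.06 to 52.2 FPKM in controls. Dct followed with 5.30 to 13.6 FPKM in knockouts and 11.6 to 18.1 FPKM in controls, and Pmel with 5.16 to 10.8 FPKM in knockouts and 6.88 to 12.8 FPKM in controls. In control 1 Dct (18.1 FPKM) was above Ednrb (9.06 FPKM), and the ranges of Dct and Pmel overlapped, so that neither order is separated by the spread. Tyr, Mitf and Mlana had means over the 6 embryos of 1.44, 1.38 and 1.13 FPKM, with overlapping ranges. Gpnmb, Slc45a2 and Tyrp1 lay lower, at means of 0.574, 0.566 and 0.413 FPKM, and Oca2 was lowest at 0.168 FPKM. The pigment cell markers Tyr, Tyrp1, Dct, Pmel and Mlana had reads in every embryo, as had the other 5 genes.

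**Figure D1:**
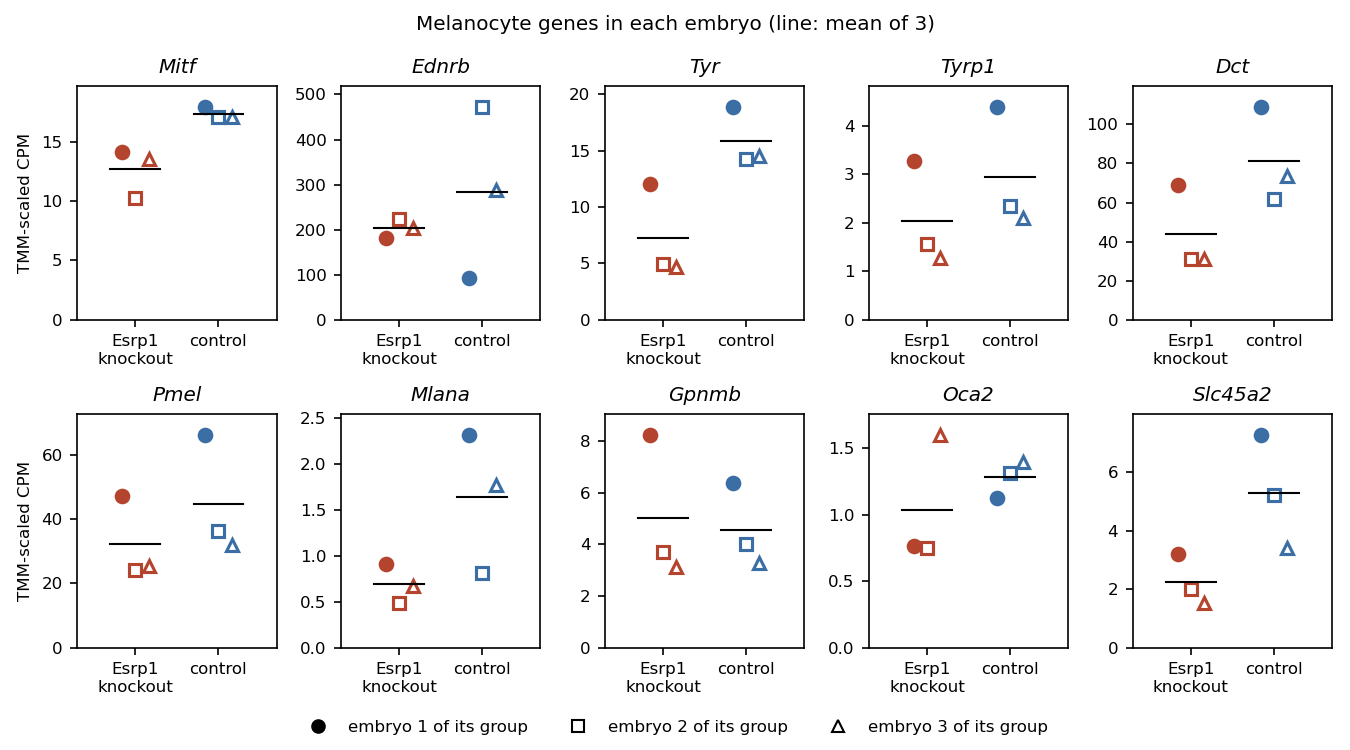
TMM-scaled CPM (vertical axes, each starting at 0) of the 10 melanocyte genes in 3 Esrp1 knockout (left) and 3 control embryos (right); symbols give the embryo number and the line the mean of 3. In Mitf, Tyr and Slc45a2 the knockouts lie wholly below the controls, and in Tyr, Tyrp1, Dct and Pmel the filled circles (embryo 1) are the highest of each group.

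Mitf, the master transcription factor of the lineage (chromosome 6, 97807002 to 98021360), had 14.2, 10.3 and 13.5 CPM in knockouts 1, 2 and 3, against 17.9, 17.1 and 17.1 CPM in controls 1, 2 and 3. Every knockout lay below every control, and the controls differed little among themselves (17.4 ± 0.466 CPM, against 12.7 ± 2.08 CPM in knockouts; SD, n = 3 each). Its log2 fold change was -0.46 ± 0.18 (SE, unadjusted p = 0.0313 and adjusted p = 0.903, edgeR's quasi-likelihood test), so that Mitf did not pass the threshold over all genes. Its 3 transcript rows held 1498 to 1562 reads in all, nearly equal numbers, so that they do not separate the melanocyte-specific form from the others. Their log2 fold changes in the authors' deposited table ran from -0.58 to -0.55.

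Ednrb, the endothelin receptor that melanoblasts need (chromosome 14, 103814615 to 103844508), varied widely among controls. It had 182, 223 and 204 CPM in knockouts 1, 2 and 3, against 93 CPM in control 1, 472 CPM in control 2 and 287 CPM in control 3. The controls thus spanned the knockouts on both sides, and control 1 was the lowest of all 6 embryos although it was the highest for Tyr, Tyrp1, Dct and Pmel. The log2 fold change of -0.48 ± 0.46 (SE, adjusted p = 0.994, edgeR) turned to 0.10 without control 2. Ednrb is also a gene of glia and endothelium. Fabp7, a fatty acid binding protein of glia taken up after its values were seen, had 130, 151 and 105 CPM in knockouts 1, 2 and 3, against 48.6, 261 and 162 CPM in controls 1, 2 and 3, so that control 1 was lowest and control 2 highest there too. The glial gene Cdh19 had 5.11, 9.50 and 6.01 CPM in knockouts and 3.57, 24.4 and 16.1 CPM in controls, with the same embryos at its ends. Fabp7 is counted further on among the genes for channels and functions of intermediate cells, and not in the glial list. Both Fabp7 and Cdh19 were picked for this pattern, and the glial list as a whole ran otherwise: its summed level was highest in control 1 (1129 CPM, against 921 and 849.6 CPM in controls 2 and 3), where Sox10 and Erbb3 were highest too (475 and 422 CPM). The part of such cells in the Ednrb values was not tested.

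The 3 pigment enzymes come from a single protein family. Tyr encodes tyrosinase, the rate-limiting enzyme of melanin synthesis, on chromosome 7 (87424771 to 87493512). It had 12.05, 4.94 and 4.67 CPM in knockouts 1, 2 and 3, against 18.9, 14.3 and 14.5 CPM in controls 1, 2 and 3. The groups did not overlap, and knockout 1 lay much nearer to the controls than knockouts 2 and 3 did. The mean in knockouts was 45.4% of that in controls (log2 fold change -1.15 ± 0.36, SE, unadjusted p = 0.0122, adjusted p = 0.630, edgeR).

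Dct encodes dopachrome tautomerase, an early marker of melanoblasts that acts after tyrosinase (chromosome 14, 118012790 to 118052246). It was at 69.0, 31.1 and 31.3 CPM in knockouts 1, 2 and 3 and at 109, 61.6 and 73.5 CPM in controls 1, 2 and 3. Knockout 1 lay above control 2, so the groups overlapped by that embryo alone. The log2 fold change was -0.89 ± 0.34 (SE, unadjusted p = 0.0267, adjusted p = 0.860, edgeR). In the authors' deposited table, which tests transcript rows, Dct had a log2 fold change of -0.99 and an FDR of 0.0260, and Tyr had -1.26 and an FDR of 0.0530. There 222 of 28644 rows, or 0.775%, had an FDR under 0.05.

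Tyrp1, whose product stabilises tyrosinase and oxidises a late melanin precursor in mice, had far fewer reads (chromosome 4, 80834123 to 80851736). It had 3.28, 1.56 and 1.27 CPM in knockouts 1, 2 and 3, against 4.39, 2.36 and 2.10 CPM in controls 1, 2 and 3. Embryo 1 was the highest of each group, and knockout 1 exceeded controls 2 and 3. With 19 to 43 reads per knockout and 39 to 70 reads per control, the difference on the log2 scale was -0.54 ± 0.46 (SE, adjusted p = 0.994, edgeR).

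Among the structural proteins of the melanosome, Pmel forms the fibrils on which melanin is laid down (chromosome 10, 128695888 to 128720238). Its values were 47.3, 24.1 and 25.5 CPM in knockouts 1, 2 and 3 and 66.4, 36.2 and 32.1 CPM in controls 1, 2 and 3. Knockout 1 exceeded controls 2 and 3, and the log2 fold change of -0.48 ± 0.34 (SE, adjusted p = 0.994, edgeR) was smaller than that of Dct or Tyr, a difference between genes that was not tested. Mlana, a small membrane protein that works with PMEL in young melanosomes (chromosome 19, 29697541 to 29708447), had only 12, 9 and 10 reads in knockouts 1, 2 and 3, against 37, 18 and 33 reads in controls 1, 2 and 3. All knockouts had fewer reads than any control, but after scaling knockout 1 (0.915 CPM) lay above control 2 (0.817 CPM). Summed over embryos, the ratio of Mlana reads in knockouts to controls was 0.426 per scaled library (exact 95% interval 0.274 to 0.649, which covers counting error only), and edgeR gave a log2 fold change of -1.25 ± 0.51 (SE, unadjusted p = 0.0368, adjusted p = 0.9504).

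Gpnmb, a glycoprotein related to PMEL that macrophages and osteoclasts make as well (chromosome 6, 49036518 to 49058182), was the only member with a positive log2 fold change (0.14 ± 0.42, SE, adjusted p = 0.994, edgeR). Its levels were 8.23, 3.70 and 3.14 CPM in knockouts 1, 2 and 3, against 6.39, 3.99 and 3.29 CPM in controls 1, 2 and 3. The embryos numbered 1 were highest in both groups, while the other 4 lay between 3.14 and 3.99 CPM. Without knockout 1 the value turned to -0.42, and without control 3 to -0.05. The macrophage markers (12 of 13 in the table) summed to 189.7 to 240 CPM in knockouts and 89.7 to 230.8 CPM in controls, with control 1 the lowest of the 6, and their part in the Gpnmb values was not tested.

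The transport proteins of the melanosome set its ion content and acidity. Slc45a2 encodes a membrane transporter whose loss gives oculocutaneous albinism (chromosome 15, 11000721 to 11029233). It had 3.20, 1.99 and 1.53 CPM in knockouts 1, 2 and 3, against 7.27, 5.22 and 3.39 CPM in controls 1, 2 and 3. The groups did not overlap, though knockout 1 and control 3 were close. The mean in knockouts was 42.3% of that in controls (log2 fold change -1.24 ± 0.39, SE, unadjusted p = 0.0121, adjusted p = 0.628, edgeR). Oca2, the melanosomal chloride conductance, was rarest, with 10, 14 and 24 reads in knockouts 1, 2 and 3 and 18, 29 and 26 reads in controls 1, 2 and 3 (chromosome 7, 56239593 to 56536518). Knockout 3 had the highest scaled level of all 6 embryos (1.601 CPM), and knockouts 1 and 2 the lowest (0.762 and 0.752 CPM, against 1.13 to 1.401 CPM in controls). Its difference on the log2 scale was -0.31 ± 0.43 (SE, adjusted p = 0.994, edgeR), smaller than its SE, so that neither a fall nor its absence is shown.

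Of the 10 genes, 0 passed an adjusted p of 0.05 in edgeR, where 0.149% of all genes tested did so. DESeq2 also called 0 of the 10, and 1.04% of all genes. In edgeR, 5 of the 10 had an unadjusted p under 0.05, all of them lower in knockouts (Mitf, Tyr, Dct, Mlana and Slc45a2). Of all genes tested in edgeR 4.77% reached that level, and 1.90% did so with lower values in knockouts. DESeq2 counted 5 of the 10 as well, but its share over all genes was not computed, so that count has no background to be read against. The groups did not overlap in 3 of the 10 (Mitf, Tyr and Slc45a2, all lower in knockouts), as in 4.44% of all genes tested. The log2 fold change was negative in 9 of the 10 and in 49.7% of all genes, with medians of -0.51 over the 10 and 0.00 over all genes. The 10 genes were measured in the same 6 embryos, so they are not 10 independent observations.

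**Figure D2:**
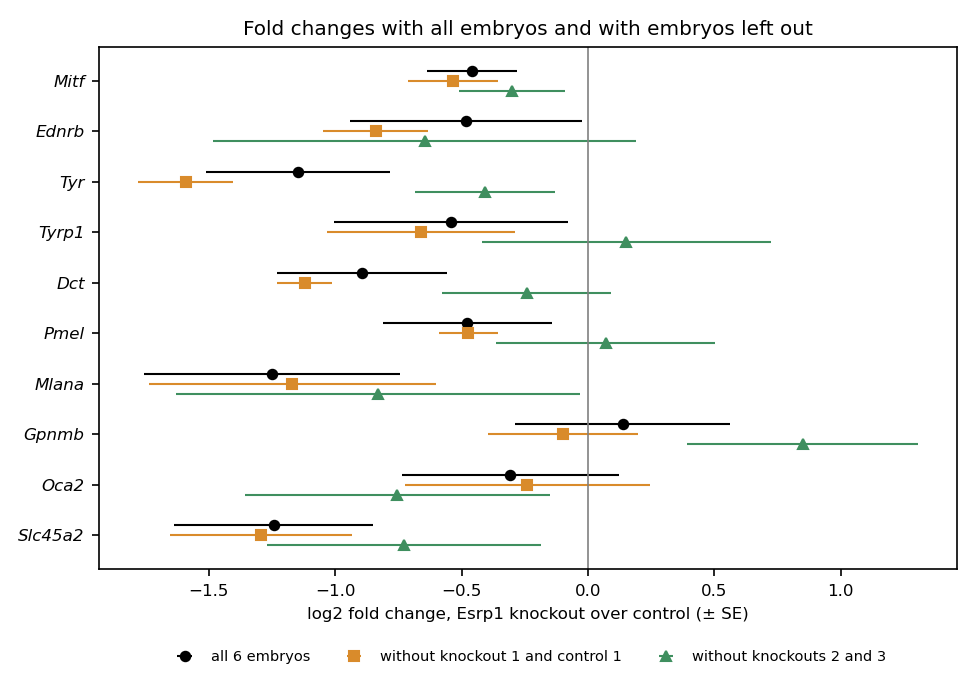
Log2 fold change of Esrp1 knockout over control with its SE (horizontal axis) for each of the 10 genes, with all 6 embryos (black circles), without knockout 1 and control 1 (orange squares) and without knockouts 2 and 3 (green triangles). Dct runs from -1.12 in the second fit to -0.24 in the third, and Tyrp1, Pmel and Gpnmb change sign between fits.

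The size of these differences depended on which embryos entered. Without knockout 1 alone, Tyr was at -1.73 (adjusted p = 0.0861, edgeR) and Dct at -1.39 (adjusted p = 0.222, edgeR). Without knockouts 2 and 3, the embryos with low Xist, the log2 fold changes of Tyr and Dct were -0.41 and -0.24, Tyrp1 and Pmel turned to 0.15 and 0.07, and the median of the 10 was -0.35. That fit has a lone knockout, which is assumed to vary like the controls. With Xist as a covariate Tyr and Dct were at -0.32 and -0.16, Tyrp1 and Pmel at 0.23 and 0.13, and the median was -0.30. Only knockouts 2 and 3 have low Xist, so the genotype term of that fit rests mostly on knockout 1 against the controls. It is therefore not a separate result from the fit without knockouts 2 and 3. Knockout 1 is also the knockout with high Fos, so the smaller fold changes of both fits cannot be assigned to sex. Without knockout 1 and control 1, the embryos with high Fos, Dct (-1.12, adjusted p = 0.00479, edgeR) and Tyr (-1.59, adjusted p = 0.0100, edgeR) fell in the knockout, and all 10 genes were negative with a median of -0.75. In that fit 1.07% of all genes were called, and the controls left have high Xist and the knockouts left low Xist, so sex and genotype cannot be told apart there. The same holds for the fit without knockout 1 alone. With all embryos, knockouts 2 and 3 have low Xist and no control does, so sex and genotype are partly mixed in the main fold changes too. Mlana and Slc45a2 were at -0.83 ± 0.80 and -0.73 ± 0.54 (SE) without knockouts 2 and 3, and at -1.17 and -1.29 without both embryos numbered 1.

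**Figure D3:**
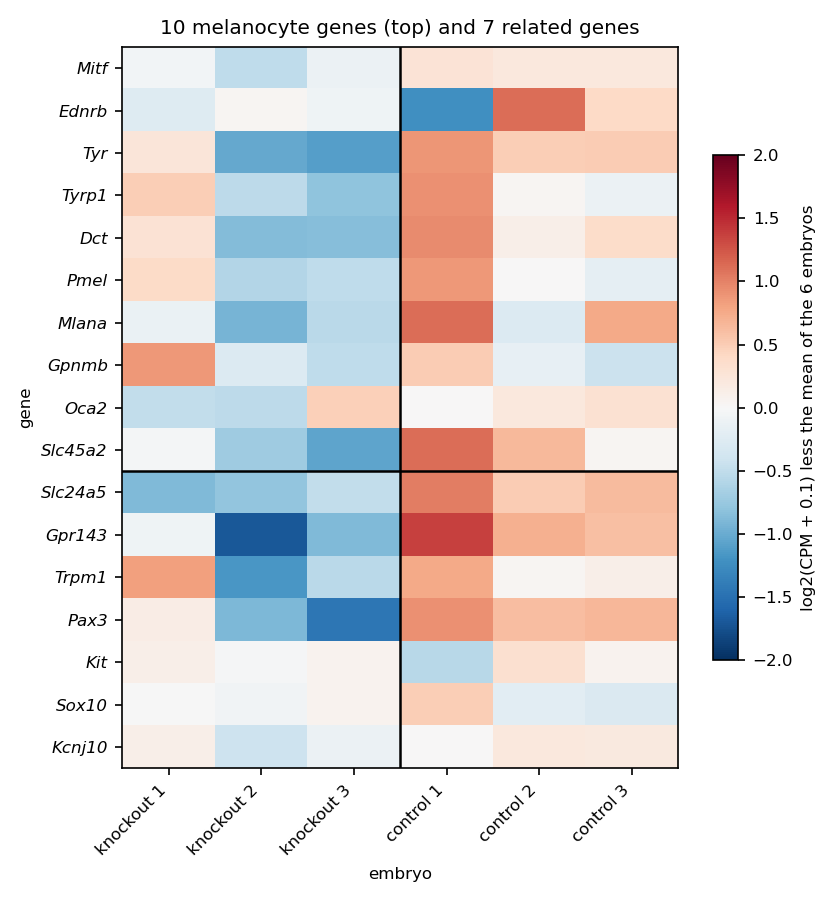
Colour gives log2(CPM + 0.1) after subtraction of each gene's mean (blue low, red high) for the 10 melanocyte genes (above the line) and 7 related genes (below it), in knockouts 1 to 3 (left) and controls 1 to 3 (right). Knockouts 2 and 3 are blue in most pigment genes, knockout 1 is pale red in Tyr, Tyrp1, Dct and Pmel, control 1 is deeper red, and Ednrb, Kit and Sox10 follow other patterns.

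Other genes of the melanosome were read in the same fit. Of 31 listed, 27 were tested, 0 passed in edgeR, and 16 were negative with a median log2 fold change of -0.06. Lower values in knockouts with an unadjusted p under 0.05 were seen for 4, and higher ones for 0. Slc24a5, the melanosomal cation exchanger, had 1.601, 1.72 and 2.14 CPM in knockouts 1, 2 and 3, against 6.33, 4.40 and 4.796 CPM in controls 1, 2 and 3. All 3 knockouts were alike here, knockout 1 included, and lay below every control. The log2 fold change of -1.50 ± 0.29 (SE) had an adjusted p = 0.164 in edgeR and an adjusted p = 0.00422 in DESeq2, and was -1.69 without knockouts 2 and 3.

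Gpr143, the pigment cell receptor that sets melanosome number, had 7, 2 and 4 reads in knockouts 1, 2 and 3 and 26, 22 and 17 reads in controls 1, 2 and 3. Its ratio of reads was 0.242 (exact 95% interval 0.122 to 0.443, counting error only), at an adjusted p = 0.559 in edgeR. Syt4, a synaptotagmin of secretory vesicles, had -1.13 ± 0.25 (SE, adjusted p = 0.241 in edgeR and adjusted p = 0.00481 in DESeq2), and the cystine transporter gene Slc7a11 had -0.76 ± 0.32 (SE, adjusted p = 0.991, edgeR). Trpm1, a melanocyte channel chosen after its values were seen, had 7.55, 1.83 and 2.87 CPM in knockouts 1, 2 and 3, against 7.21, 4.35 and 4.58 CPM in controls 1, 2 and 3. Knockout 1 was the highest of all 6 embryos in Trpm1.

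Regulators, receptors and ligands of the lineage numbered 23, of which 22 were tested and 0 passed in edgeR (15 negative, median -0.13), while 1 passed in DESeq2. Pax3, a neural crest factor that acts on the Mitf promoter, had 1.22, 0.537 and 0.334 CPM in knockouts 1, 2 and 3, against 2.13, 1.72 and 1.78 CPM in controls 1, 2 and 3. The groups did not overlap, at a log2 fold change of -1.45 ± 0.49 (SE, adjusted p = 0.712, edgeR). Hgf, a growth factor for melanocytes, had 16.6 ± 2.36 CPM in knockouts and 28.7 ± 4.13 CPM in controls (SD, n = 3 each; log2 fold change -0.79, adjusted p = 0.238 in edgeR and adjusted p = 0.0122 in DESeq2). Edn3, the ligand of EDNRB, was at 20.4 ± 2.01 CPM in knockouts and 15.3 ± 3.49 CPM in controls (SD, n = 3 each; log2 fold change 0.42, adjusted p = 0.994, edgeR).

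The receptor gene Kit had 47.9, 43.2 and 46.3 CPM in knockouts 1, 2 and 3, against 29.96, 54.7 and 46.2 CPM in controls 1, 2 and 3, with a log2 fold change of 0.07 (adjusted p = 0.994, edgeR). For its ligand gene Kitl that value was -0.47 (adjusted p = 0.994, edgeR). Sox10 had 335, 323 and 355 CPM in knockouts 1, 2 and 3, against 475, 291 and 277 CPM in controls 1, 2 and 3 (log2 fold change -0.04, adjusted p = 0.994, edgeR). Sox10 is made by the otic epithelium and by glia as well as by melanocytes, and its mean of 51.8 FPKM in knockouts and 51.6 FPKM in controls was well above that of Dct on the same scale. Kcnj10, the potassium channel gene of intermediate cells and of other cochlear cells, had 8.03 ± 1.45 CPM in knockouts and 9.67 ± 0.777 CPM in controls (SD, n = 3 each; log2 fold change -0.27, adjusted p = 0.994, edgeR). Of the 12 genes for channels and functions of intermediate cells, 0 passed, with a median of -0.22 (8 negative and 4 positive). The adhesion receptor gene Cd44 was at -0.53 (adjusted p = 0.570, edgeR). Gstm1 of the same list went the other way, at 0.50 (adjusted p = 0.9125, edgeR).

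**Figure D4:**
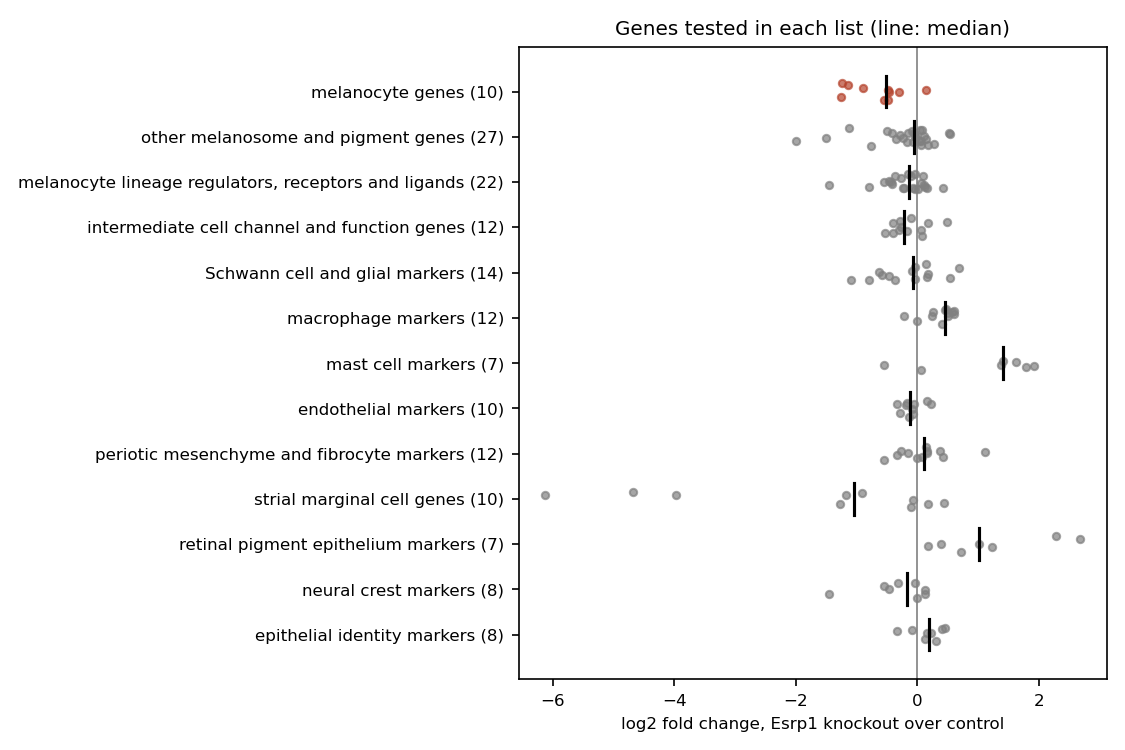
Log2 fold change of Esrp1 knockout over control (horizontal axis) for every tested gene of each list, with the number tested in brackets and the median as a line. The median of the 10 melanocyte genes is -0.51, that of strial marginal cell genes -1.04, and those of glial and endothelial markers -0.06 and -0.11.

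Markers of other cells that such a preparation can hold were set beside the melanocyte genes. Schwann cell and glial markers (14 of 14 in the table) summed to 838 to 1014 CPM in knockouts and 849.6 to 1129 CPM in controls, and 0 of 14 passed (median log2 fold change -0.06). Mast cell markers, which share KIT and MITF with melanocytes, had a median log2 fold change of 1.41 over 7 tested. In edgeR 0 of them passed, and in DESeq2 5 did (Cma1, Cpa3, Hdc, Mcpt4 and Tpsb2), all higher in knockouts. Their tryptase gene Tpsb2 was at 26.4 ± 10.3 CPM in knockouts and 6.96 ± 2.26 CPM in controls (SD, n = 3 each; log2 fold change 1.92, adjusted p = 0.132 in edgeR and adjusted p = 9.54e-06 in DESeq2), while Fcer1a had 0 reads in all embryos. The log2 fold change was positive in 6 of the 7 mast cell markers tested, though near 0 for Kit (0.07), and negative for Gata2 (-0.54). The whole mast cell list summed to 300.5 to 404.6 CPM in knockouts and 318.9 to 459.1 CPM in controls, so that the sums overlapped. For Mitf the log2 fold change was negative, and the part of mast cells in the Mitf values was not tested. Endothelial markers summed to 247 to 424 CPM in knockouts and 272 to 529 CPM in controls, with a median of -0.11 and 0 of 10 passing.

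Of the 8 markers of the retinal pigment epithelium, the other pigmented cell that makes Tyr, Dct and Pmel, Rpe65 had 0 reads in all embryos. Of the 7 tested Mfrp rose (log2 fold change 2.68 ± 0.31, SE, adjusted p = 0.0255, edgeR), though the Mfrp rows hold the same reads as rows of its neighbour C1qtnf5. DESeq2 called Otx2 in addition, 2 of the list in all. The list summed to 138 to 320 CPM in knockouts and 63.3 to 119 CPM in controls, mostly from Ttr, Rlbp1 and Otx2. Among neural crest markers 0 of 8 passed (median -0.17), as among periotic mesenchyme markers (0 of 12, median 0.12), macrophage markers (0 of 12, median 0.46) and epithelial identity markers (0 of 8, median 0.20). Among genes of strial marginal cells, Bsnd, Esrrb and Kcne1 fell, 3 of 10 tested in edgeR (5 in DESeq2). Without knockout 2, or without control 3, 0 genes of any list passed in edgeR, and 0 of all genes. Marginal cells lie next to the intermediate cells, and that list summed to 338 to 520 CPM in knockouts and 686.5 to 1268 CPM in controls, with no overlap. Control 1 was highest in that sum, as it was for Tyr, Tyrp1, Dct, Pmel, Mlana and Slc45a2. This was not particular to marginal and pigment cell genes. Control 1 was also highest of the 6 embryos in the sum of epithelial identity markers (1872 CPM, against 963 and 1147 CPM in controls 2 and 3). The same held for the intermediate cell list (2154 CPM, against 1712 and 1767 CPM) and the glial list. In the sums of macrophage and periotic mesenchyme markers control 1 was lowest.

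The level pattern of the melanocyte genes over the embryos was summarised as the mean of their standardised log2 CPM, and then compared with other genes. The profile was 0.18, -0.97 and -0.69 in knockouts 1, 2 and 3, against 0.84, 0.36 and 0.28 in controls 1, 2 and 3. Tyr and Dct followed it most closely among the 10 (Pearson's r of 0.98 each over 6 embryos, with each gene being part of the profile). Slc45a2, Mitf, Pmel, Tyrp1 and Mlana had r from 0.85 to 0.93, Gpnmb 0.53, Oca2 0.17 and Ednrb -0.20. Among 14085 other genes with a mean of at least 1 CPM, the 10 most alike were Hist3h2a, Olfml3, Dhrs11, Bcl2l14, Kcnq1, Sorcs3, 2700060E02Rik, Id4, Psmd10 and Ccdc3, with r from 0.976 to 0.990, and 26 genes exceeded 0.95. With 6 embryos and so many genes, this likeness is a description without a test. Kcnq1, the potassium channel gene of strial marginal cells, had 9.22, 4.78 and 4.804 CPM in knockouts 1, 2 and 3, against 15.8, 9.16 and 10.4 CPM in controls 1, 2 and 3. Its embryos stood in the order of those of Tyr in that control 1 was highest and knockouts 2 and 3 lowest.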

How the data were processed

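Read counts per RefSeq transcript row were deposited by the authors without normalisation, with the 2 libraries of an embryo in 1 column, per the file headers. The deposited FPKM values were scaled by transcript length and library size by the authors, per the file headers. The log2 fold changes, p-values and FDR of the authors' deposited table come from edgeR over transcript rows, per the file headers and the submitters' processing notes, which also name mm10. Which aligner and counter made them is not given in the sources used here. The table has 16 more columns of values, which did not enter. The protein comparison that was planned is not reported here.

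Of 28644 rows, each gene kept the row with most reads over the 6 embryos. Genes were filtered with filterByExpr (minimum count 10), scaled by TMM and tested with edgeR 4.0.16 (quasi-likelihood F test, R 4.3.3), with Benjamini-Hochberg adjustment over all 14717 genes. Fold changes are knockout over control, and SE was obtained as the absolute log2 difference divided by √F. DESeq2 1.42.0 and limma 3.58.1 (on log2(FPKM + 0.1)) served as alternatives. Exact 95% intervals of read ratios cover counting error only. In counts simulated from these embryos over 14606 genes, 62 of 100 genes changed 2-fold and 93 of 99 changed 4-fold were recovered, with 11 false calls. Each gene was drawn independently there, so effects that genes of an embryo share are left out. The recovery may thus differ for the 10 genes. Gene symbols were located in RefSeq on GRCm38. The genes, lists, tests and motifs were chosen with earlier results of these data known. The named genes are the 10 members, Esrp1, Kit, Kitl, Sox10, Edn3, Kcnj10, up to 4 of each list by unadjusted p and the 10 genes most like the members' profile. Other names were chosen after their values were seen.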

Additional observations from a re-analysis of the deposited data

How the results depend on the processing

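The log2 fold changes of the 10 genes were recomputed under 15 alternatives, 150 values in all, of which 140 kept their direction and their side of the threshold. Of the 10 genes 0 were called with all embryos, and 0 with RLE size factors, DESeq2, no filter on low counts, the row with fewest reads, limma on log2 FPKM, Xist as a covariate, knockouts 2 and 3 left out or any 1 embryo left out. Without both embryos numbered 1 there were 2 (Dct and Tyr). Tyrp1 and Pmel turned to 0.23 and 0.13 with Xist as a covariate and to 0.15 and 0.0694 without knockouts 2 and 3, and Gpnmb to -0.10 without both embryos numbered 1. The cause of these turns was not tested. With each embryo left out in turn, Ednrb ran from -0.90 to 0.10, Gpnmb from -0.42 to 0.45, Tyr from -1.73 to -0.92 and Dct from -1.39 to -0.63. Over the lists of other genes 4 were called with all embryos, 15 in DESeq2, 1 with Xist as a covariate, 8 without both embryos numbered 1, 0 without knockouts 2 and 3, and 0 to 5 with each embryo left out. Over all genes edgeR called 22 and DESeq2 166, against 6 with Xist as a covariate and 159 without both embryos numbered 1.

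With the embryo number as a replicate block, 0 of the 10 genes and 1 of the other listed genes were called, 6 genes in all, and the median of the 10 was -0.52. Deviations from the group means correlated at 0.08, 0.18 and 0.03 for the same-numbered pairs 1, 2 and 3. Pairs of unlike number ran from -0.22 to 0.16, so that only the same-numbered pair 2 lay above all of them. The sample descriptions give same-numbered embryos a shared ID prefix, which could mark a litter but is not explained there, so the numbers were not taken to pair the embryos. In 7 of the 10 genes (Mitf, Tyr, Tyrp1, Dct, Pmel, Mlana and Slc45a2) each knockout was below the control of its number. For Mitf, Tyr and Slc45a2 this follows from groups that do not overlap. The share of all genes tested for which it holds was not computed, so the count has no background to be read against. Under the block the SE was 0.14 for Dct and 0.11 for Pmel, against 0.34 for each without it, at log2 fold changes of -0.95 and -0.47 (adjusted p = 0.157 and 0.389, edgeR). Counting error alone leaves the ratio of Oca2 reads between 0.541 and 1.16.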
